A study of Mus musculus with 9 samples.

Results

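Cell cycle and DNA replication genes were described in mouse brain tissue after injection of PBS or of virus at a low or a high dose. Genes were taken by symbol: those starting with Mcm, Cdk or Kif followed by a number, or with Cdc (other than Cdc42), Aurk, Bub, Cenp, Ccna2, Ccnb or Ccne, together with Top2a, Mki67, Birc5, Ube2c, Rrm2, Tk1, Pclaf and Plk1. This rule found 20 of the 1710 genes in the deposited table. Of the 20, 5 act in DNA replication (Mcm3, Mcm6, Mcm10, Pclaf and Tk1) and 14 in entry into or passage through mitosis (Cdk1, Ccna2, Ccnb1, Ccnb2, Ube2c, Aurkb, Birc5, Cenpe, Cenpj, Cenpq, Kif2c, Kif11, Kif15 and Top2a), and Mki67 is a general marker of cycling cells. Genes of these families outside the table were not analysed here, and a row labelled CDK2AP1, in capitals, was not taken as a member. All 9 libraries came from wild-type (WT) mice, from tissue labelled brain ctx that was taken at the virus-infected centre 10 days after a stereotaxic injection, as 3 PBS, 3 LowDose and 3 HighDose libraries. PBS is a salt buffer, and the series title names AAV (adeno-associated virus), a vector for gene delivery, together with cGAS-STING, a pathway that senses cytoplasmic DNA. The sources used here do not give the strain, age and sex of the mice, the amounts behind the dose names or whether replicate libraries came from separate animals. Each n, SD, SE and p below therefore describes libraries, whose spread may be technical.

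Dividing cells license replication origins before S phase by loading the MCM helicase, a ring that holds Mcm3 and Mcm6 among its subunits, and Mcm10 helps to start the loaded helicase. Tk1 makes thymidine phosphate for DNA synthesis and Pclaf binds the sliding clamp PCNA at the fork, while Cdk1 with its cyclins A2, B1 and B2 drives the cell into mitosis. In that phase Aurkb and Birc5 belong to the chromosomal passenger complex, while Cenpq, Cenpe and other kinesins attach and move the chromosomes. Top2a untangles the chromosomes, and Ube2c works with the anaphase-promoting complex to destroy cyclins. Cenpj, in spite of its symbol, is a centriole protein. Most neurons of the adult brain have left the cycle, and dividing cells there are mainly glia, their precursors, progenitors of a few niches and immune cells.

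Library totals, recovered from the deposited counts and FPKM values, were 18.3 to 23.7 M (M, 1e6 reads or read pairs). With log2 values rounded to 2 decimals, every one of the 1710 listed genes had a 2-fold or greater difference between the mean FPKM of some pair of groups. The table is therefore a selected set and the tests repeat part of that choice. The listed genes took 1.54% to 1.61% of the total in PBS, 1.34% to 1.38% in LowDose and 3.90% to 6.04% in HighDose. Values are given below as counts per 1e6 of the library total (CPM), and 3 counts correspond to 0.126 to 0.164 CPM. Of 6 marker genes of cortical neurons fixed for a check of the tissue label none is among the listed genes. The 6 of 6 markers of the striatum are, at a summed 641 to 964 CPM in PBS, 235 to 540 in LowDose and 239 to 263 in HighDose. Only genes with a 2-fold difference are listed, so the absence of the cortical markers does not tell whether they were expressed. The check therefore cannot decide whether the tissue held cortex. In bulk tissue, fewer cells of a type and less RNA per cell cannot be told apart.

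Promoter sequence is shown for 4 of the genes because the replication and mitosis genes are known to be switched on through different promoter elements, and their values are set against each other below. The RefSeq table for GRCm38.p6 held 18 of the 20 genes, without Aurkb and Ccna2, and the window ran from 250 bases before to 30 bases after the annotated start. Searched on both strands were E2F sites (TTTCCCGC, TTTGGCGC, TTTCGCGC or TTTGCCGC), the cell cycle homology region or CHR (TTTGAA or TTTAAA) and the CCAAT box (CCAAT). Capitals mark any match, the strand is minus for all 4, and matches can overlap, as a pair of E2F matches does in Mcm6. The windows are chr1:128359676-128359955 for Mcm6, chr1:20820283-20820562 for Mcm3, chr11:99024160-99024439 for Top2a and chr14:56571817-56572096 for Cenpj.
Mcm6: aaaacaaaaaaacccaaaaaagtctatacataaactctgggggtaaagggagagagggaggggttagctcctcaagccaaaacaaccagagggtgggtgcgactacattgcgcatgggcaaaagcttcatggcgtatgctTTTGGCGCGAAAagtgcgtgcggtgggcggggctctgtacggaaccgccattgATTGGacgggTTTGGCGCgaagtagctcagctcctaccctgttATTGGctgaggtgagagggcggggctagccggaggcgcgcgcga
Mcm3: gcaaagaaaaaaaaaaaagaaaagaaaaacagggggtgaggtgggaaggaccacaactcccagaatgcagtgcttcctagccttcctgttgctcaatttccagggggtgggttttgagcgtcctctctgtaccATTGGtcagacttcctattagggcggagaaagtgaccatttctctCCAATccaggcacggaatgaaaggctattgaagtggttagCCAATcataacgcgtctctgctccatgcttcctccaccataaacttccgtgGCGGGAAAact
Top2a: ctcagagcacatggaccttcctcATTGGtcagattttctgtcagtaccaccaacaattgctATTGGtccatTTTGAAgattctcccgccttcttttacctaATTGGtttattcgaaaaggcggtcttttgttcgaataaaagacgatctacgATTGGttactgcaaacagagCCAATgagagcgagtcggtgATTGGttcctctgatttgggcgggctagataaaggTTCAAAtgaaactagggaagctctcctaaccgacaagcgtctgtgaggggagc
Cenpj: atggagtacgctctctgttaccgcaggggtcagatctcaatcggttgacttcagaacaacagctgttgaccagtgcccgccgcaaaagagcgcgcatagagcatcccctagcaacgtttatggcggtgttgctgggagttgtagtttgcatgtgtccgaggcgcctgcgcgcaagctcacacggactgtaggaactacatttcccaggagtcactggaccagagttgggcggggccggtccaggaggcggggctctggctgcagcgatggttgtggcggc
E2F letters were found in 3 of the 5 replication genes (Mcm3, Mcm6 and Pclaf) and in 2 of the 12 mitosis genes with a window (Cdk1 and Kif15), against 2.12% of all 32851 promoter windows. CHR letters were found in 10 of the 12 mitosis genes (the others are Cenpj and Cenpq), in Mki67 and in 2 of the 5 replication genes (Pclaf and Tk1), against 26.7% of all windows. The CCAAT box was found in 8 of the 12 mitosis genes and 4 of the 5 replication genes, against 36.1% of all windows. The Cenpj window, which holds no match, begins at a RefSeq start inside the GENCODE span of the gene. A match is a description of letters, not a measured site.

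In HighDose against PBS, 14 of the 20 genes rose and 0 fell relative to the library totals, at an adjusted p under 0.05 in edgeR's quasi-likelihood test, beside 86.3% of all 1583 tested genes that rose and 10.7% that fell. With scaling within the listed genes, which sets the median change of all genes to 0.19 to 0.22 in place of 1.90 on the log2 scale, 1 of the 20 rose (Mcm6) and 7 fell (Mcm3, Mki67, Ccna2, Ccnb1, Kif11, Kif15 and Ube2c). Such scaling treats the listed genes as level on the whole between groups. But 1411 of the 1710 listed genes had at least 2-fold higher mean FPKM in HighDose than in PBS. The falls are therefore relative to the listed genes. Over all tested genes 37.9%, 38.2% and 38.3% rose and 29.3%, 28.7% and 28.7% fell with TMM, with DESeq2 size factors and with the sum of the listed counts. The 5 replication genes rose with library totals, by a median log2 change of 1.42 (0.97 to 2.59), but had medians of -0.24 to -0.21 with scaling within the listed genes. Of the mitosis genes 9 of 14 rose with library totals, at a median over all 14 of 1.13 (0.44 to 1.60), but the medians were -0.57 to -0.54 with the other scalings. Mcm6 and Tk1 were the only members above the median change of all tested genes with library totals. Every HighDose library lay above every PBS library for 15 of the 20 genes, beside 85.8% of all tested genes. The table is chosen for 2-fold differences, and 11 of the 20 members differ 2-fold between the mean FPKM of these groups. With the adjustment taken over all 55450 annotated genes, 7 calls of the 14 were kept (Mcm3, Mcm6, Tk1, Cdk1, Cenpe, Cenpj and Top2a), beside 76.4% of all tested genes that rose with that adjustment.

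**Figure D1:**
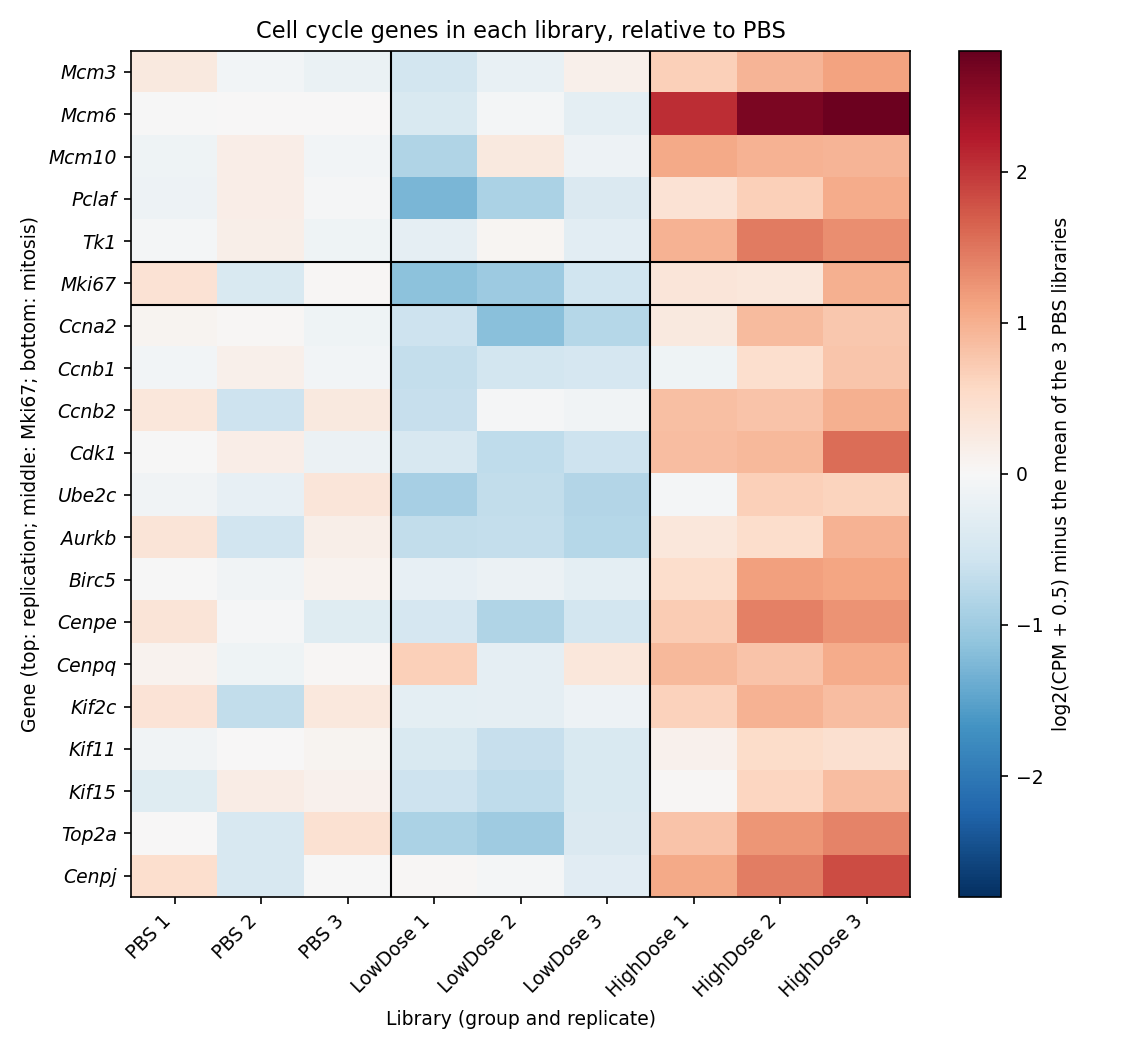
Heat map of 20 cell cycle genes (rows) in 9 libraries (columns), coloured by log2(CPM + 0.5) minus the mean of the 3 PBS libraries, scaled by library totals. The HighDose columns are red for nearly all genes and darkest for Mcm6, and the LowDose columns are mostly blue, with Cenpq an exception; relative to the listed genes alone, 18 of the 20 genes are lower in HighDose than in PBS.

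Mcm6, a subunit of the helicase ring (chr1:128331590-128359664, mm10, minus strand), had 7.03, 7.12 and 7.15 CPM in the 3 PBS libraries, 5.14, 6.79 and 5.77 in LowDose and 31.1, 46.6 and 50.6 in HighDose. The HighDose libraries stood far above all others, and the LowDose libraries lay just below those of PBS. The log2 change in HighDose against PBS was 2.59 ± 0.24 (SE, n = 3 libraries; edgeR adjusted p = 3.42e-13), and in LowDose against PBS it was -0.27 ± 0.24 (adjusted p = 0.791). Mcm6 was the only member called higher in HighDose against PBS under each of the scalings tried. Its partner Mcm3 (chr1:20802968-20820312, minus strand) had 4.85, 3.68 and 3.41 CPM in PBS, 2.61, 3.37 and 4.38 in LowDose and 6.56, 8.09 and 9.14 in HighDose. The HighDose libraries were again the highest, and those of LowDose and PBS overlapped. The log2 change of Mcm3 was 0.996 ± 0.28 in HighDose against PBS (edgeR adjusted p = 0.00127) and -0.21 ± 0.29 in LowDose against PBS (adjusted p = 0.905).

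These subunits sit in the same ring, so their levels per transcript length were set side by side. The ratio of Mcm6 to Mcm3 in FPKM, which does not depend on the scaling between libraries, was 1.5, 1.98 and 2.12 in PBS, 1.99, 2.06 and 1.34 in LowDose and 4.83, 5.90 and 5.72 in HighDose. All 3 HighDose libraries lay above all 6 others, and PBS and LowDose overlapped. At 14.5 FPKM in the HighDose mean, Mcm6 had the highest level per length of the 20 genes, followed by Cenpq with 2.85 and Mcm3 with 2.62. In PBS Mcm6 was also the highest, at 2.40 FPKM, followed by Ube2c with 1.40 and Cenpq with 1.39.

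Mcm10, which starts the loaded helicase (chr2:4989714-5012791, minus strand), had 0.600, 0.872 and 0.646 CPM in PBS, 0.169, 0.944 and 0.588 in LowDose and 2.01, 1.87 and 1.82 in HighDose. HighDose was higher than both other groups in every library (log2 change against PBS 1.42 ± 0.47, edgeR adjusted p = 0.00503), and LowDose overlapped PBS. Tk1, the thymidine kinase of the S phase (chr11:117815526-117826092, minus strand), had 0.218, 0.339 and 0.184 CPM in PBS, 0.126, 0.270 and 0.107 in LowDose and 0.963, 1.53 and 1.34 in HighDose. The values in LowDose are 3, 6 and 2 counts, near the limit of what these libraries can measure, and HighDose held 22, 32 and 31. The log2 change of Tk1 against PBS was 2.34 ± 0.56 in HighDose (edgeR adjusted p = 0.000203) and -0.53 ± 0.70 in LowDose (adjusted p = 0.892). Pclaf, the PCNA-binding factor (chr9:65890237-65903266, plus strand), had 0.872, 1.21 and 0.968 CPM in PBS, 0.126, 0.315 and 0.641 in LowDose and 1.49, 1.91 and 2.60 in HighDose. The 3 groups of Pclaf did not overlap, with LowDose lowest. Its log2 change was 0.97 ± 0.45 in HighDose against PBS (edgeR adjusted p = 0.0382) and -1.53 ± 0.52 in LowDose against PBS (adjusted p = 0.112). The call of Pclaf in HighDose was lost without PBS replicate 1, PBS replicate 3, HighDose replicate 2 or HighDose replicate 3.

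Among the drivers of mitotic entry, Cdk1, the kinase of mitosis (chr10:69335146-69352938, minus strand), had 1.04, 1.26 and 0.876 CPM in PBS, 0.632, 0.450 and 0.534 in LowDose and 2.32, 2.39 and 4.07 in HighDose. The groups did not overlap and stood in the order LowDose, PBS, HighDose. Cdk1 rose by a log2 change of 1.47 ± 0.40 in HighDose against PBS (edgeR adjusted p = 0.000842) and had -0.96 ± 0.45 in LowDose against PBS (adjusted p = 0.370). Cyclin A2 (Ccna2; chr3:36564865-36572150, minus strand) had 2.53, 2.41 and 2.13 CPM in PBS, 1.41, 0.773 and 1.13 in LowDose and 2.93, 4.76 and 4.32 in HighDose. It showed the same order without overlap, with a log2 change of 0.77 ± 0.34 in HighDose against PBS (edgeR adjusted p = 0.0298) that was lost without any 1 of the PBS libraries and without HighDose replicate 2 or 3. Its value in LowDose against PBS was -1.10 ± 0.37 (adjusted p = 0.1001). Cyclin B1 (Ccnb1; chr13:100778650-100786570, minus strand) had 1.15, 1.40 and 1.15 CPM in PBS, 0.590, 0.719 and 0.748 in LowDose and 1.09, 1.91 and 2.47 in HighDose. HighDose replicate 1 lay among the PBS libraries, and the log2 change of 0.56 ± 0.42 did not pass (edgeR adjusted p = 0.191). Cyclin B2 (Ccnb2; chr9:70407692-70421547, minus strand) ranged from 0.242 to 0.872 CPM in PBS, from 0.211 to 0.584 in LowDose and from 1.44 to 1.69 in HighDose. It rose by 1.24 ± 0.49 in HighDose against PBS (edgeR adjusted p = 0.0164), a call lost without PBS replicate 2, which held the lowest of the PBS values. Ube2c (chr2:164769898-164778822, plus strand), the ubiquitin-conjugating enzyme that helps to end mitosis, had 1.20, 1.07 and 1.80 CPM in PBS, 0.464, 0.629 and 0.534 in LowDose and 1.27, 2.39 and 2.30 in HighDose. LowDose was below PBS in every library (log2 change -1.32 ± 0.46, edgeR adjusted p = 0.127), while HighDose overlapped PBS (0.54 ± 0.41, adjusted p = 0.198).

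In the passenger complex and at the kinetochore, the kinase gene Aurkb (chr11:69045647-69051664, plus strand) had 0.981, 0.291 and 0.784 CPM in PBS, 0.211, 0.225 and 0.160 in LowDose and 0.919, 1.10 and 1.73 in HighDose. LowDose lay below every PBS library but did not pass, at a log2 change of -1.74 ± 0.61 (edgeR adjusted p = 0.130), and HighDose overlapped PBS (0.87 ± 0.50, adjusted p = 0.0918). Its partner Birc5 (survivin; chr11:117849251-117855743, plus strand) ranged from 0.726 to 0.922 CPM in PBS, from 0.588 to 0.674 in LowDose and from 1.36 to 2.44 in HighDose, a rise of 1.31 ± 0.43 on the log2 scale over PBS (edgeR adjusted p = 0.00479). Cenpe, a kinesin of the kinetochore (chr3:135212537-135273611, plus strand), ranged from 0.922 to 1.80 CPM in PBS, from 0.495 to 0.801 in LowDose and from 2.45 to 4.26 in HighDose, and rose by 1.41 ± 0.38 in HighDose against PBS (edgeR adjusted p = 0.000821). Cenpq (chr17:40923051-40935047, minus strand), a structural protein of the centromere, stood apart from the other members. It had 2.89, 2.42 and 2.77 CPM in PBS, 4.59, 2.16 and 3.47 in LowDose and 5.51, 5.07 and 6.02 in HighDose. The mean of LowDose lay above that of PBS for Cenpq alone among the 20 genes, with overlapping libraries and a log2 change of 0.34 ± 0.31 (edgeR adjusted p = 0.797). In HighDose against PBS Cenpq rose by 1.04 ± 0.31 (edgeR adjusted p = 0.00192). Cenpq is 1 of 9 members that overlap a gene on the other strand (with Mki67, Ccna2, Cenpj, Kif11, Top2a, Ube2c, Pclaf and Tk1), and the sources used here do not say whether strand was used in counting. Only Ccna2, which overlaps Exosc9, had counts that were not whole, in all 9 libraries.

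Over the 3 Kif genes, which are mitotic kinesins, the log2 values in HighDose against PBS ran from 0.44 to 1.23. Kif11, which pushes the spindle poles apart (chr19:37376403-37421859, plus strand), had 2.02, 2.23 and 2.35 CPM in PBS, 1.52, 1.21 and 1.50 in LowDose and 2.45, 3.35 and 3.16 in HighDose. The 3 groups did not overlap, yet the log2 change of 0.44 ± 0.34 in HighDose against PBS did not pass (edgeR adjusted p = 0.207). Kif15 (chr9:122951046-123018733, plus strand), which backs up Kif11 on the spindle, had 0.436, 0.872 and 0.784 CPM in PBS, 0.295, 0.225 and 0.374 in LowDose and 0.700, 1.29 and 1.65 in HighDose, with all LowDose libraries lowest and HighDose overlapping PBS (0.78 ± 0.49, edgeR adjusted p = 0.121). Kif2c (chr4:117159639-117182639, minus strand), which takes microtubules apart at centromeres, had 0.763, 0.097 and 0.692 CPM in PBS, 0.295, 0.315 and 0.374 in LowDose and 1.01, 1.39 and 1.26 in HighDose. Its rise in HighDose against PBS, 1.23 ± 0.54 (edgeR adjusted p = 0.0274), was lost without PBS replicate 2, HighDose replicate 2 or HighDose replicate 3.

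Top2a, the topoisomerase that separates sister chromatids (chr11:98992943-99024189, minus strand), had 3.65, 2.52 and 5.03 CPM in PBS, 1.73, 1.57 and 2.62 in LowDose and 6.61, 9.18 and 10.3 in HighDose. HighDose was highest in every library, and LowDose replicate 3 reached into the PBS range. Top2a rose by 1.22 ± 0.30 in HighDose against PBS (edgeR adjusted p = 0.000264), and its LowDose value was -0.93 ± 0.32 (adjusted p = 0.112). Cenpj, a centriole protein (chr14:56526761-56575425, minus strand), had 3.49, 1.60 and 2.35 CPM in PBS, 2.45, 2.29 and 1.82 in LowDose and 5.47, 7.27 and 9.71 in HighDose. Its rise of 1.60 ± 0.32 over PBS was the largest of the mitosis genes in this comparison (edgeR adjusted p = 1.61e-05), and its LowDose libraries lay within the PBS range (-0.17 ± 0.33, adjusted p = 0.927).

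Mki67, which codes for the Ki-67 antigen used to count cycling cells (chr7:135689784-135716361, minus strand), had 5.78, 3.002 and 4.33 CPM in PBS, 1.64, 1.84 and 2.73 in LowDose and 5.51, 5.41 and 8.93 in HighDose. All LowDose libraries lay below all PBS libraries, and 2 of the HighDose libraries lay within the PBS range. In HighDose against PBS the log2 change was 0.60 ± 0.30 (edgeR adjusted p = 0.0566), and in LowDose against PBS it was -1.08 ± 0.32 (adjusted p = 0.0599). Both values lie just outside the threshold. In LowDose against PBS Mki67 passed, as a fall, in some of the alternative fits. In HighDose against PBS Mki67 passed in a direction that followed the scaling. With library totals it rose with the replicate block and in some fits without a single library. Relative to the listed genes, most of which were listed as higher in HighDose, it was lower. It fell with TMM (log2 change -1.12, edgeR adjusted p = 0.0024), with DESeq2 size factors (-1.08, adjusted p = 0.0028) and with the sum of the listed counts (-1.09, adjusted p = 0.0032).

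**Figure D2:**
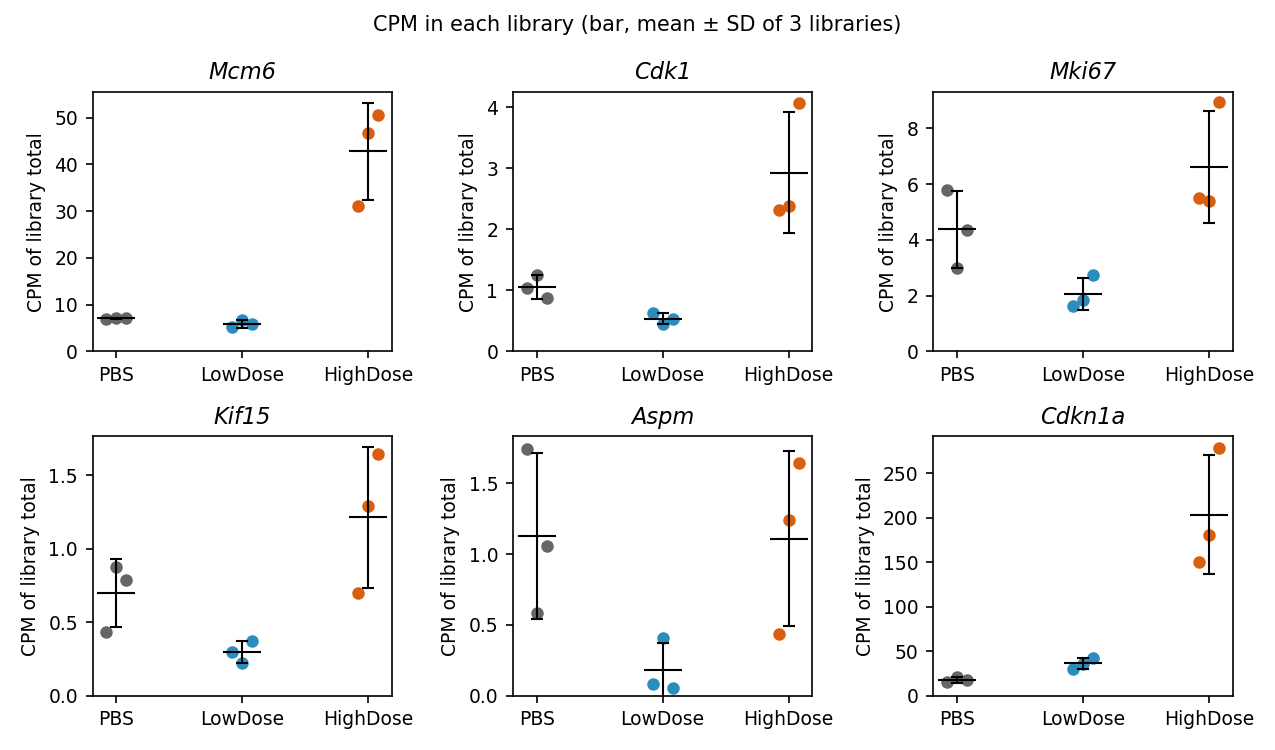
CPM of library total (vertical axis, from 0) in the 3 libraries of each group for Mcm6, Cdk1, Mki67, Kif15, Aspm and Cdkn1a, each point a library and each bar the mean ± SD. Mcm6 and Cdkn1a are far above PBS in HighDose, Mki67 and Kif15 overlap PBS in HighDose, and Aspm is lowest in LowDose; with scaling within the listed genes Mki67 and Kif15 are lower in HighDose than in PBS.

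In LowDose against PBS, 0 of the 20 genes passed in edgeR's quasi-likelihood test, beside 0.442% of all tested genes that rose and 2.15% that fell; 0 passed in DESeq2 as well. At an unadjusted p under 0.05, 9 of the 20 genes were lower in edgeR (Mki67, Ccna2, Top2a, Pclaf, Ube2c, Aurkb, Cenpe, Kif15 and Cdk1), beside 7.83% of all tested genes, and 8 had such a p in DESeq2. The log2 value was below 0 for 19 of the 20 genes, beside 53.2% of all tested genes, and for 19, 19 and 17 with TMM, with DESeq2 size factors and with the sum of the listed counts as scaling. The median was -0.75 over the 20 genes, -0.33 over the 5 replication genes and -0.89 over the 14 mitosis genes, beside -0.03 over all tested genes. Without LowDose replicate 2 the order of the sets turned, with -0.94 for replication and -0.81 for mitosis. Every LowDose library lay below every PBS library for 12 of the 20 genes, beside 13.1% of all tested genes: Mki67, the replication genes Mcm6 and Pclaf, and 9 mitosis genes.

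Part of that pattern can be fixed by how the table was made, since a gene with less than a 2-fold difference between HighDose and PBS could enter only through a pair that holds LowDose. There were 9 such members (Aurkb, Ccna2, Ccnb1, Kif11, Kif15, Mcm3, Mki67, Pclaf and Ube2c), with a median of -1.10 in LowDose against PBS and all LowDose libraries below PBS for 8 of them. Mcm3, at 1.995-fold, lies at the limit and would count as 2-fold if its log2 value were rounded. The other 11 members would be listed by the HighDose difference alone. They were still chosen on the same PBS libraries, so their values in LowDose against PBS are not free of the listing. Their median was -0.53, the value was below 0 for 10 of the 11, and all LowDose libraries lay below PBS for 4 (Birc5, Cdk1, Cenpe and Mcm6), that is 36.4%. Over the 1290 tested genes that differ by the same 2-fold rule, the median was 0.05, 44.0% were below 0, and for 65 (5.04%) every LowDose library lay below PBS. The members of this count differ in level and share the 9 libraries, and the difference between these shares was not tested.

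In HighDose against LowDose, all 20 genes rose with library totals in edgeR's quasi-likelihood test, beside 88.1% of all tested genes, but with scaling within the listed genes 1 or 2 rose (Mcm6, and Tk1 with 2 of the 3 scalings) and 2 or 3 fell (Cenpq and Kif11, and Mcm3 with 2 of the 3 scalings). Over all tested genes 35.7%, 36.4% and 33.1% rose and 29.1%, 28.1% and 33.1% fell with TMM, with DESeq2 size factors and with the sum of the listed counts. Every HighDose library lay above every LowDose library for 20 of the 20 genes, beside 86.5% of all tested genes. The median log2 change was 2.50 over the replication genes and 1.86 over the mitosis genes, beside 1.88 over all tested genes. The largest values belonged to Tk1 (2.87 ± 0.59, edgeR adjusted p = 2.62e-05) and Mcm6 (2.86 ± 0.24, adjusted p = 2.52e-14), and the smallest to Cenpq (0.70 ± 0.30, adjusted p = 0.0281). The call of Cenpq was lost without LowDose replicate 2, LowDose replicate 3 or HighDose replicate 3. Aurkb rose by 2.61 ± 0.58, Cdk1 by 2.43 ± 0.43, Top2a by 2.14 ± 0.31 and Mki67 by 1.68 ± 0.32 in the same test. The comparison shares its LowDose libraries with the one against PBS, so its values are not separate evidence of the low levels there. Of the 20 genes 19 had their group means in the order LowDose, PBS, HighDose, beside 42.8% of all tested genes, and Cenpq was the other. Part of this order and of the calls in this comparison can be fixed by how the table was made. The mean FPKM was at least 2-fold higher in HighDose than in LowDose for 19 of the 20 members and 1440 of all 1710 listed genes. Of the members, 9 could enter only through a pair that holds LowDose, with Mcm3 at the limit counted among them.

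**Figure D3:**
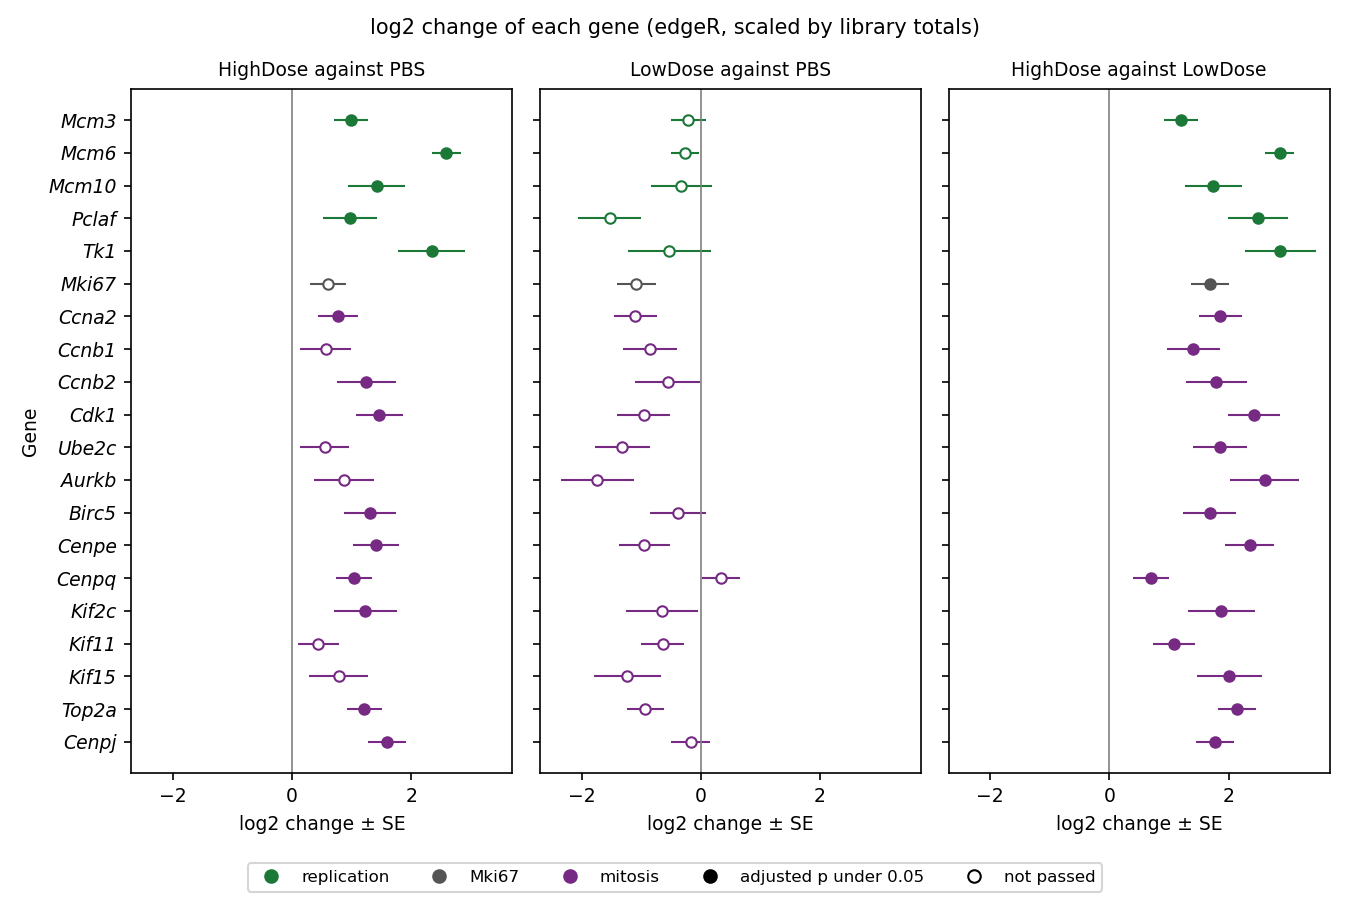
log2 change ± SE (horizontal axis, edgeR, scaled by library totals) of each of the 20 genes in the 3 comparisons, green for replication, grey for Mki67 and purple for mitosis, with filled points where the adjusted p is under 0.05. In HighDose against PBS 14 points are filled and lie to the right, in LowDose against PBS none is filled and 19 of 20 lie to the left of 0; with scaling within the listed genes 18 of the 20 HighDose values against PBS lie below 0.

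Replication was then set against mitosis within each library, as the mean log2(CPM + 0.5) of the 5 replication genes minus that of the 14 mitosis genes. Relative to the PBS mean, the replication genes stood at -0.01, 0.09 and -0.08 in PBS, -0.66, -0.17 and -0.20 in LowDose and 1.03, 1.34 and 1.43 in HighDose. The mitosis genes stood at 0.10, -0.19 and 0.08 in PBS, -0.43, -0.55 and -0.41 in LowDose and 0.49, 0.88 and 1.03 in HighDose. Relative to the library totals, HighDose was highest for both sets and LowDose was lowest for both sets, without overlap with PBS. Part of the low LowDose levels can be fixed by how the table was made. Of the replication genes 2 (Pclaf, and Mcm3 at the limit) and of the mitosis genes 6 could enter only through a pair that holds LowDose. The difference, which hardly depends on the scaling between libraries, was 0.23 ± 0.24 in PBS, 0.35 ± 0.31 in LowDose and 0.69 ± 0.07 in HighDose (mean ± SD, n = 3 libraries each). With this pseudocount of 0.5 CPM all 3 HighDose libraries lay above the other 6, with the lowest of them at 0.63 and LowDose replicate 2 at 0.61, but with 0.1 CPM LowDose replicate 2 at 0.70 lay above HighDose replicate 3 at 0.64, and the groups overlapped. Without Mcm6 the difference was 0.07 at most and -0.41 at least in PBS, from -0.51 to 0.13 in LowDose and from -0.16 to 0.06 in HighDose, and the 3 groups overlapped. The separation in HighDose thus rests on Mcm6 and on the pseudocount. No p is given for these levels because the genes were chosen with results of these data known.

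**Figure D4:**
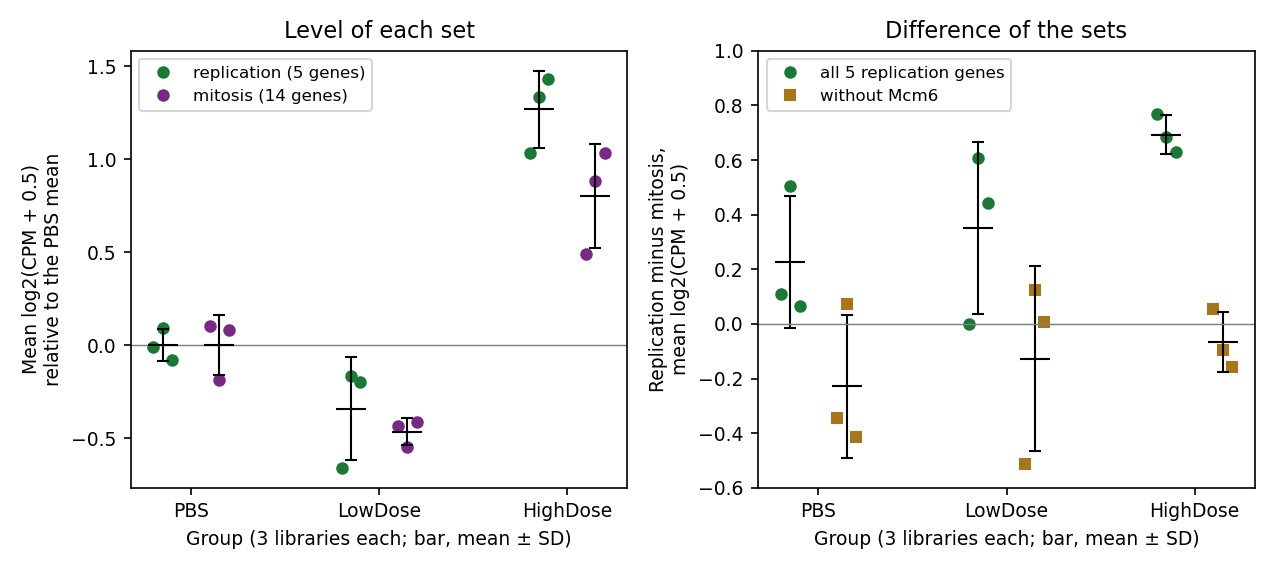
Left, mean log2(CPM + 0.5) of the 5 replication genes and the 14 mitosis genes relative to the PBS mean, scaled by library totals; right, the replication mean minus the mitosis mean with all 5 replication genes (circles) and without Mcm6 (squares), with points for libraries and bars for mean ± SD of 3. With Mcm6 the HighDose circles lie at 0.63 to 0.77, the lowest just above LowDose replicate 2 at 0.61 (an order that turns with a pseudocount of 0.1 CPM), and without it the squares of the 3 groups overlap; relative to the listed genes alone both sets have median changes below 0 in HighDose against PBS.

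The libraries of a group also differed among themselves. HighDose replicate 1 was the lowest HighDose library for 16 of the 20 genes, with a summed 35.6 CPM over the mitosis genes where the highest library had 54.8. The listed genes as a whole were also lowest there, at 3.90% of the library total beside 5.21% and 6.04% in HighDose replicates 2 and 3. The same count over all tested genes was not made. PBS replicate 2 was the lowest PBS library for 8 of the 14 mitosis genes and for 0 of the 5 replication genes.

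Other genes of the cycle were read from the same fit, in which HighDose against PBS gave a rise for 86.3% and a fall for 10.7% of all tested genes. Of 73 further replication genes on a list, 7 are in the table, and 5 of them rose in HighDose against PBS with library totals (Uhrf1, Timeless, Asf1b, Hells and Chek1). With scaling within the listed genes 0 rose, 3 fell (Chaf1b, Hells and Timeless) and all 7 lay below 0. Over all tested genes 37.9% to 38.3% rose and 28.7% to 29.3% fell with these scalings. In LowDose against PBS 0 of the 7 passed in edgeR (1 at an unadjusted p under 0.05, lower) or in DESeq2. The median was -0.20, beside -0.03 over all tested genes. Of 82 further mitosis genes, 18 are in the table, and in HighDose against PBS 10 rose and 1 fell with library totals, but 1 rose (Gtse1) and 8 fell with scaling within the listed genes. Smc4, a subunit of the condensin complex that compacts chromosomes, had the smallest rise among the genes called on these lists, a log2 change of 0.85 ± 0.29 in HighDose against PBS with library totals (edgeR adjusted p = 0.00543). In LowDose against PBS 15 of the 18 lay below 0, beside 53.2% of all tested genes, with a median of -0.83 beside -0.03. Of the 18, 2 fell, Aspm and Depdc1b, beside 2.15% of all tested genes. With scaling within the listed genes 0 fell, and in DESeq2 1 fell. Genes of this list with less than a 2-fold difference between HighDose and PBS could also enter only through a pair that holds LowDose. They were not set apart here. Aspm, a spindle pole protein, had 1.74, 0.581 and 1.06 CPM in PBS, 0.084, 0.405 and 0.053 in LowDose and 0.438, 1.24 and 1.65 in HighDose. LowDose lay below PBS in every library (log2 change -2.57 ± 0.64, edgeR adjusted p = 0.0181), but the adjusted p was 0.127 with TMM and reached 0.0749 when single libraries were left out. The LowDose values of Aspm are 2, 9 and 1 counts, near the limit of what these libraries can measure. In HighDose against PBS its log2 change was -0.02 ± 0.52 (edgeR adjusted p = 0.975). Depdc1b, a gene of mitotic cells, had log2 changes against PBS of -1.86 ± 0.62 in HighDose (edgeR adjusted p = 0.00510) and -2.32 ± 0.66 in LowDose (adjusted p = 0.0443), and the second call was lost when single libraries were left out (up to 0.284). Its values are 5, 1 and 3 counts in LowDose and 4, 3 and 6 in HighDose, also near the limit. The HighDose call was not kept when the adjustment covered all annotated genes (edgeR adjusted p = 0.178).

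Cdkn1a, which stops the cycle, rose in both dose groups against PBS. It codes for p21, an inhibitor of cyclin-dependent kinases and a target of p53. Cdkn1a had 14.99, 20.8 and 17.2 CPM in PBS, 30.4, 35.9 and 42.2 in LowDose and 151, 181 and 278 in HighDose, and the 3 groups did not overlap. The log2 change was 3.52 ± 0.25 in HighDose (edgeR adjusted p = 8.38e-17) and 1.03 ± 0.23 in LowDose (adjusted p = 0.00604) against PBS, and both calls held with TMM, with 0.0139 for LowDose. The LowDose call was not kept when the adjustment covered all annotated genes (adjusted p = 0.212). Of 24 genes of DNA damage and p53 targets on a list, 14 are in the table, and 14 rose in HighDose against PBS with library totals (median 1.79), but 6 rose and 3 fell with scaling within the listed genes. For this list and those that follow, 86.3% of all tested genes rose and 10.7% fell with library totals, at a median of 1.90. With scaling within the listed genes 37.9% to 38.3% of all tested genes rose and 28.7% to 29.3% fell. In LowDose 0 of the 14 passed in edgeR (1 at an unadjusted p under 0.05, higher) or in DESeq2, with a median of 0.07. Eda2r, a receptor gene and p53 target, rose by 5.20 ± 0.40 in HighDose against PBS (edgeR adjusted p = 7.56e-16). Gdf15, a stress-induced secreted factor, had 1 count in the 3 PBS libraries and 289 in the 3 HighDose libraries, a ratio of 262 per library total with a 95% counting interval of 46.7 to 10399. That interval pools the libraries of a group and leaves out the spread between them. The log2 change of Gdf15 in HighDose against PBS was 7.59 ± 0.73 (edgeR adjusted p = 1.24e-12). Of 21 genes of the G1 phase and Cdk inhibitors, 7 are in the table, of which 6 rose and 1 fell in HighDose with library totals, but 2 rose (Cdkn1a and Rbl1) and 5 fell with scaling within the listed genes. Mycn, a driver of growth in progenitors, was the one that fell, with a log2 change of -1.42 ± 0.27 (edgeR adjusted p = 7.08e-06). The 2 regulators in the table from a list of 16, E2f8 and Mybl1, rose in HighDose with library totals, and 0 of them rose with scaling within the listed genes.

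Markers of cell types that can hold dividing cells moved with the groups, and their part in the results above was not tested. T cell markers (7 of 9 in the table, 7 of which rose in HighDose against PBS) summed to 0.533 to 1.38 CPM in PBS, 1.01 to 1.62 in LowDose and 12.6 to 28.6 in HighDose, with Cd3d at 0 in all PBS libraries and Cd8b1 at 0 in all LowDose libraries. NK cell markers (6 of 6, all of which rose) summed to 0.194 to 0.273 CPM in PBS, 0.160 to 0.270 in LowDose and 33.3 to 57.0 in HighDose, with Klrb1c and Klrk1 at 0 in all LowDose libraries. Monocyte and neutrophil markers (3 of 6, which rose) summed to 0.600 to 1.47 CPM in PBS, 0.963 to 1.77 in LowDose and 109 to 192 in HighDose. B and plasma cell markers (4 of 6, of which 3 were tested and 2 rose) summed to 0.600 to 0.922 CPM in PBS, 0.337 to 0.674 in LowDose and 2.76 to 5.72 in HighDose. Gpr17, the 1 of 4 markers of oligodendrocyte precursors in the table, stood at 73.2 to 88.9 CPM in PBS, 46.0 to 57.0 in LowDose and 33.6 to 48.0 in HighDose. The log2 change of Gpr17 was -1.05 in HighDose (edgeR adjusted p = 2.34e-05) and -0.70 ± 0.21 in LowDose (adjusted p = 0.0639) against PBS. Microglia markers (3 of 7, of which Tmem119 rose and P2ry12 and Fcrls fell in HighDose against PBS with library totals, and all 3 fell with scaling within the listed genes) summed to 84.98 to 105 CPM in PBS, 78.8 to 80.5 in LowDose and 74.0 to 80.1 in HighDose, and Gfap, the 1 of 4 astrocyte markers in the table, had 113 to 146, 100 to 168 and 374 to 534 CPM. Dlx6 and Igfbpl1, the 2 of 12 genes of a list of young neurons in the table that was chosen after values were seen, summed to 4.56 to 5.28 CPM in PBS, 2.61 to 3.50 in LowDose and 1.82 to 2.10 in HighDose.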

How the data were processed

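RNA was sequenced from 9 libraries, 3 each of PBS, LowDose and HighDose. The authors deposited estimated counts for each gene, with 7.66% to 14.0% of values not whole, and were rounded here. FPKM values were deposited beside them, per the file headers. The submitters' processing notes name mm10, edgeR and DESeq2 without a role, and the sources used here give no aligner or counter. Since the table is a selected set, library totals were computed from count, FPKM and transcript length of GENCODE M21 genes with 1 transcript (FPKM of at least 5, counts of at least 100, length of at least 600). GENCODE M21 held 1704 of the 1710 identifiers.

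After filterByExpr with a minimum count of 10, 1583 genes were tested, among them all 20 members. The groups were compared with the quasi-likelihood test of edgeR 4.0.16 (R 4.3.3) in 1 model with library totals as scaling, 3 contrasts and the Benjamini-Hochberg adjustment at 0.05 over the tested genes. An approximate SE was derived from each log2 change and its F statistic. Mean levels used a pseudocount of 0.5 CPM. Every member was named, and over the further cell cycle lists the 3 highest and 3 lowest log2 changes among the genes called in HighDose against PBS (Gdf15, Eda2r, Cdkn1a, Smc4, Mycn and Depdc1b). Aspm, and other genes named as members of a small count, were chosen after their values were seen.

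The alternatives tried were 3 scalings within the listed genes (TMM, size factors of DESeq2 1.42.0, and their summed counts), other filters, the DESeq2 test, only the 2 groups compared, a replicate block, other pseudocounts and leaving out each library. Adjustment over all annotated genes and a 2-fold limit were added after seeing the data. The members and lists were chosen with earlier results of these data known. The fit was tested on simulated data. Figures used Python 3.11.15 and matplotlib 3.10.9.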

Additional observations from a re-analysis of the deposited data

How the results depend on the processing

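Scaling had the largest effect. With TMM, DESeq2 size factors and the sum of the listed counts, the median log2 change of all tested genes went from 1.90 to 0.19, 0.22 and 0.22 in HighDose against PBS, where 600, 605 and 607 genes rose and 464, 455 and 454 fell in place of 1366 and 169. In HighDose against LowDose it went from 1.88 to 0.13, 0.17 and -0.0030, and in LowDose against PBS from -0.03 to 0.01, 0.00 and 0.18. In HighDose against PBS 1 member rose and 7 fell with each of these scalings, and the medians were -0.24, -0.22 and -0.21 over the replication genes and -0.57, -0.54 and -0.54 over the mitosis genes. In HighDose against LowDose 2, 2 and 1 members rose and 3, 2 and 3 fell, with medians of 0.76, 0.80 and 0.61 over the replication genes and 0.11, 0.15 and -0.029 over the mitosis genes. In LowDose against PBS the median of the mitosis genes was -0.68 with the sum of the listed counts. The members that changed sign in HighDose against PBS had log2 values with TMM of -1.12 for Mki67, -0.85 for Aurkb, -0.41 for Birc5, -0.94 for Ccna2, -1.17 for Ccnb1, -0.44 for Ccnb2, -0.25 for Cdk1, -0.30 for Cenpe, -0.13 for Cenpj, -0.64 for Cenpq, -1.26 for Kif11, -0.94 for Kif15, -0.46 for Kif2c, -0.50 for Top2a, -1.18 for Ube2c, -0.24 for Mcm10, -0.71 for Mcm3 and -0.74 for Pclaf. With DESeq2 size factors they were -1.08 for Mki67, -0.82 for Aurkb, -0.38 for Birc5, -0.91 for Ccna2, -1.14 for Ccnb1, -0.41 for Ccnb2, -0.22 for Cdk1, -0.28 for Cenpe, -0.096 for Cenpj, -0.61 for Cenpq, -1.23 for Kif11, -0.92 for Kif15, -0.43 for Kif2c, -0.47 for Top2a, -1.15 for Ube2c, -0.22 for Mcm10, -0.68 for Mcm3 and -0.72 for Pclaf. With the sum of the listed counts they were -1.09 for Mki67, -0.82 for Aurkb, -0.38 for Birc5, -0.91 for Ccna2, -1.14 for Ccnb1, -0.41 for Ccnb2, -0.22 for Cdk1, -0.28 for Cenpe, -0.099 for Cenpj, -0.61 for Cenpq, -1.23 for Kif11, -0.92 for Kif15, -0.43 for Kif2c, -0.47 for Top2a, -1.15 for Ube2c, -0.21 for Mcm10, -0.68 for Mcm3 and -0.71 for Pclaf. In HighDose against LowDose the values with a changed sign were, with TMM, -0.070 for Mki67, -0.076 for Birc5, -0.36 for Ccnb1, -0.0027 for Cenpj, -1.04 for Cenpq, -0.66 for Kif11 and -0.54 for Mcm3. They were, with DESeq2 size factors, -0.029 for Mki67, -0.035 for Birc5, -0.32 for Ccnb1, -0.997 for Cenpq, -0.62 for Kif11 and -0.50 for Mcm3. With the sum of the listed counts they were -0.21 for Mki67, -0.21 for Birc5, -0.023 for Ccna2, -0.50 for Ccnb1, -0.055 for Ccnb2, -0.13 for Cenpj, -1.16 for Cenpq, -0.79 for Kif11, -0.035 for Ube2c, -0.093 for Mcm10 and -0.68 for Mcm3, and in LowDose against PBS 0.035 for Cenpj and 0.0016 for Mcm3. Adjustment over all annotated genes left 7 members called in HighDose against PBS and 16 in HighDose against LowDose, beside 1209 and 1219 of all 1583 tested genes. In LowDose against PBS 1 member fell with no filter (Mki67), 1 with only the 2 groups compared (Ccna2) and 1 with the replicate block (Mki67). With the replicate block 15 members rose in HighDose against PBS, with Mki67 gained, and Gpr17 fell in LowDose against PBS (adjusted p = 0.0183). Libraries with the same number correlated at -0.02 to 0.18 after removal of group means, with 4 of 9 pairs over 0.1. The 18 pairs of libraries with different numbers correlated at -0.19 to 0.15. These ranges overlap and do not decide whether the numbers mark pairs, which the sources used here do not say. The main fit did not use the numbers. Without single libraries, 11 to 17 members rose in HighDose against PBS, 0 to 2 fell in LowDose against PBS (Mki67 without PBS replicate 2 or HighDose replicate 3, Mki67 and Pclaf without LowDose replicate 3) and 19 to 20 rose in HighDose against LowDose. The medians then lay at 1.32 to 1.60 for replication and 0.91 to 1.20 for mitosis in HighDose against PBS, at -0.94 to -0.18 and -0.96 to -0.77 in LowDose against PBS, and at 2.07 to 2.68 and 1.73 to 2.02 in HighDose against LowDose. Cenpj in LowDose against PBS turned to 0.15 without PBS replicate 1, and Mcm10 to 0.13 without LowDose replicate 1. With a pseudocount of 0.1 CPM the replication minus mitosis difference was 0.18 in PBS, 0.29 in LowDose and 0.73 in HighDose, and LowDose replicate 2 overlapped HighDose. The stricter filter left out Aurkb, Kif15 and Tk1, and 17 members were tested. Counts of 2 to 7 per library, as for Tk1 outside HighDose, limit what can be measured. The causes of these changes were not tested.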
